A study of Mus musculus with 3 samples.

Results

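Wnt5a-positive Pdgfra stromal cells of the mouse small intestine were taken from 3 droplet libraries by their unique molecular identifiers (UMIs, each standing for 1 captured RNA molecule). A cell was a member when it held at least 1 Pdgfra UMI and at least 2 Wnt5a UMIs, no Prox1, Ptprc or Epcam UMI and at most 2 Myh11 UMIs. Of 22534 analysed cells, 50 met this rule, with 9, 26 and 15 in libraries 1, 2 and 3. Each library was made from the small intestine, without the duodenum, of 4 pooled wild-type C57Bl/6 females aged 9 to 10 weeks. The epithelium had been stripped with EDTA and DTT, and the remaining tissue had been digested for 60 min at 37 °C with Liberase TL and DNase I. Live CD45-negative cells positive for CD31 and podoplanin were then sorted with an enrichment setting, and stromal cells made up a minority of what was sequenced. All 3 libraries form 1 group with no treatment, and the comparisons below are between cells of the same library.

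Fibroblasts that carry the PDGF receptor alpha lie under the gut epithelium and around the crypts. Those with much Pdgfra, also called subepithelial telocytes or myofibroblasts, are known as a source of the non-canonical Wnt ligand Wnt5a and of bone morphogenetic proteins (BMPs), which act on the villus and upper crypt. Those with little Pdgfra are known for the BMP antagonist Grem1 and for R-spondins, which sustain Wnt signalling at the crypt base.

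The labels call the sorted cells endothelial, and most were: 16618 cells carried at least 2 Prox1 UMIs, the defining factor of lymphatic endothelium. The libraries held between 58857545 and 74571090 UMIs in all. Between 13 and 23 barcodes were shared by each pair of libraries, and none of them belonged to a member. Whether any animal gave cells to more than 1 library is not stated, so every p-value here measures only the spread between these libraries, which may be technical. No doublet caller was run. The rule removes cells with UMIs of Prox1, Ptprc or Epcam, and doublets with cells of other kinds were not removed.

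Members made up 0.142%, 0.388% and 0.158% of the analysed cells of libraries 1, 2 and 3 (exact 95% binomial intervals 0.0647 to 0.269, 0.253 to 0.567 and 0.0887 to 0.261, counting error only). The mean share was 0.229% ± 0.137 (SD, n = 3 libraries), and library 2 stood above the others. The sort decides how many stromal cells enter at all, so these shares say nothing of the tissue. Among the 338 Pdgfra cells that met all other limits, members were 20.5%, 13.5% and 14.7%, with a mean of 16.2% ± 3.70 (SD, n = 3). The other Pdgfra cells were 222 with no Wnt5a UMI, called Wnt5a-zero below, and 66 with exactly 1. Members had a median of 9102 UMIs per cell, Wnt5a-zero cells 8883.5 and lymphatic cells 7369.5, so the depths were close.

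The values that chose the members are a description only. Pdgfra, the receptor itself, had a median of 7.5 UMIs per member and reached 44. Its level was 690.1, 1312 and 929 CPM (UMIs of the gene per 1000000 UMIs of the summed cells) in members of libraries 1, 2 and 3, against 403, 419.6 and 327 CPM in Wnt5a-zero cells. Wnt5a ranged from 2 to 19 UMIs with a median of 3: 19 members lay at the threshold with 2 UMIs, 10 had 3 and 21 had at least 4. Its level was 287, 508 and 639 CPM in members. In lymphatic cells, 2.86% carried at least 1 Wnt5a UMI, where the rule asks for at least 2. Whether those UMIs were free RNA of the droplets or the cells' own was not tested. The 66 cells just outside had 1 Wnt5a UMI. Their Ednrb stood at 0, 368 and 86.0 CPM and their Ogn at 84.9, 789 and 436 CPM, which in libraries 2 and 3 lies between members and Wnt5a-zero cells and in library 1 below both. These sums rest on 7, 41 and 18 cells.

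Of the markers proposed for these cells, Ogn and Bmp2 were each found in part of the members and Slpi in almost none. Ogn (osteoglycin, a small leucine-rich proteoglycan) was found in 30 of 50 members and Bmp2 in 30 of 50. After each cell was thinned to 3000 UMIs, which left out 1 member, 18 Wnt5a-zero cells and 415 lymphatic cells, Ogn remained in 55.1% of members, 21.1% of Wnt5a-zero cells and 0.179% of lymphatic cells. Unthinned, the shares were 60.0%, 30.6% and 0.481%. Bmp2 set members less apart: after thinning it was found in 34.7% of members (exact 95% interval 21.7 to 49.6), 24.02% of Wnt5a-zero cells (18.3 to 30.5) and 1.20% of lymphatic cells, against 60.0%, 42.8% and 2.68% unthinned. For Ogn the intervals were 40.2 to 69.3 in members and 15.7 to 27.3 in Wnt5a-zero cells. These intervals pool the cells of all libraries and cover counting error only. The overlap for Bmp2 is therefore no test between the groups. Slpi, a secreted protease inhibitor, was seen in 2 members, and 156 of its 157 UMIs came from 1 cell of library 3. That cell also held 27 Msln, 33 Upk3b, 11 Lrrn4, 5 Wt1 and 40 Krt19 UMIs, which are all 5 mesothelial markers on the list. It carried 18 Wnt5a UMIs, 2 Pdgfra UMIs and all 9 Rspo1 UMIs of the members. It met the rule and stays among the 50, but the Slpi label rests on this cell.

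Markers of the broad stromal lineage were present throughout. All 50 members had Col1a1 UMIs, 45 had Dcn and 43 had Lum. The telocyte list had 15 of its 16 genes with a UMI in members. Its summed level was 8037 to 14955 CPM in members, against 9604 to 15083 CPM in Wnt5a-zero cells. In members this sum rests largely on Adamdec1, with 3233 UMIs, against 667 for Ednrb and 211 for Bmp5 of the same list. The sum says little of the other listed genes. The Pdgfra-low list had 14 of 14 genes with a UMI, summing to 3279 to 10564 CPM in members and 8490 to 10091 CPM in Wnt5a-zero cells. Lgr5, which marks villus-tip telocytes as well as crypt stem cells, had 0 UMIs in 50 members, which allows a share of up to 6% of cells with a UMI. A member carried between 1 and 11 of the telocyte markers (median 7.5) and between 1 and 13 of the Pdgfra-low markers (median 4).

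Endothelial and immune markers were low, while smooth muscle, epithelial, Cajal and mesothelial lists summed higher in members of some libraries than in Wnt5a-zero cells. Lymphatic genes apart from Prox1 and Ccl21a summed to 22.3 to 64.7 CPM in members, with 8 of 9 genes seen and Mmrn1 at 0. The sums were 210.5 to 280.02 CPM in Wnt5a-zero cells and 9963 to 11322 CPM in lymphatic cells. Pecam1, the gene of the sorted CD31, had 1 UMI in all members. Pdpn, the gene of podoplanin, had 180.5, 300.2 and 289.8 CPM in members and 282, 230.1 and 209 CPM in Wnt5a-zero cells. Blood endothelial genes summed to 10.6 to 60.04 CPM in members (3 of 9 seen, with Flt1, Kdr, Cd36 and Sox17 among those at 0), against 60.6 to 708 CPM in Wnt5a-zero cells. The endothelial label was thus not borne out by the RNA of the members.

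For immune cells, Cd3e, Cd79a and Tyrobp were at 0 in members. Of the lists, 2 of 9 T or innate lymphoid genes were seen (129 to 223 CPM in members and 152 to 185 CPM in Wnt5a-zero cells), 4 of 7 B or plasma genes (37.2 to 125 CPM in members and 17.8 to 199.6 CPM in Wnt5a-zero cells) and 6 of 9 myeloid genes (10.6 to 55.4 CPM in members and 14.3 to 75.8 CPM in Wnt5a-zero cells). Glial and neuronal genes summed to 0 to 22.3 CPM in members and 2.77 to 10.7 CPM in Wnt5a-zero cells, with 2 of 7 seen and Sox10 and S100b at 0. Kit, the marker of interstitial cells of Cajal, was at 0, while that list summed to 74.3 to 312 CPM in members, through 4 of 5 genes, and 67.8 to 75.5 CPM in Wnt5a-zero cells. Epithelial genes reached 490.4 CPM in members of library 3, against 21.2 CPM in library 1, with 9 of 11 seen and 17.8 to 105 CPM in Wnt5a-zero cells. In library 3, 40 Krt19 UMIs came from the cell with mesothelial markers and 1 from another member. Paneth cell genes ranged from 0 to 334 CPM in members (5 of 6 seen) and from 3.57 to 115.5 CPM in Wnt5a-zero cells. The mesothelial list (5 of 5 seen) summed to 0 to 869 CPM in members, the highest in library 3, and 0 to 12.01 CPM in Wnt5a-zero cells. Smooth muscle genes (7 of 7 seen) summed to 648 to 2147 CPM in members and 514 to 784 CPM in Wnt5a-zero cells, and pericyte genes (5 of 7 seen, Notch3 at 0) to 393 to 1062 CPM in members and 942 to 979 CPM in Wnt5a-zero cells. The part of these other lineages in the comparisons below was not tested.

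**Figure D1:**
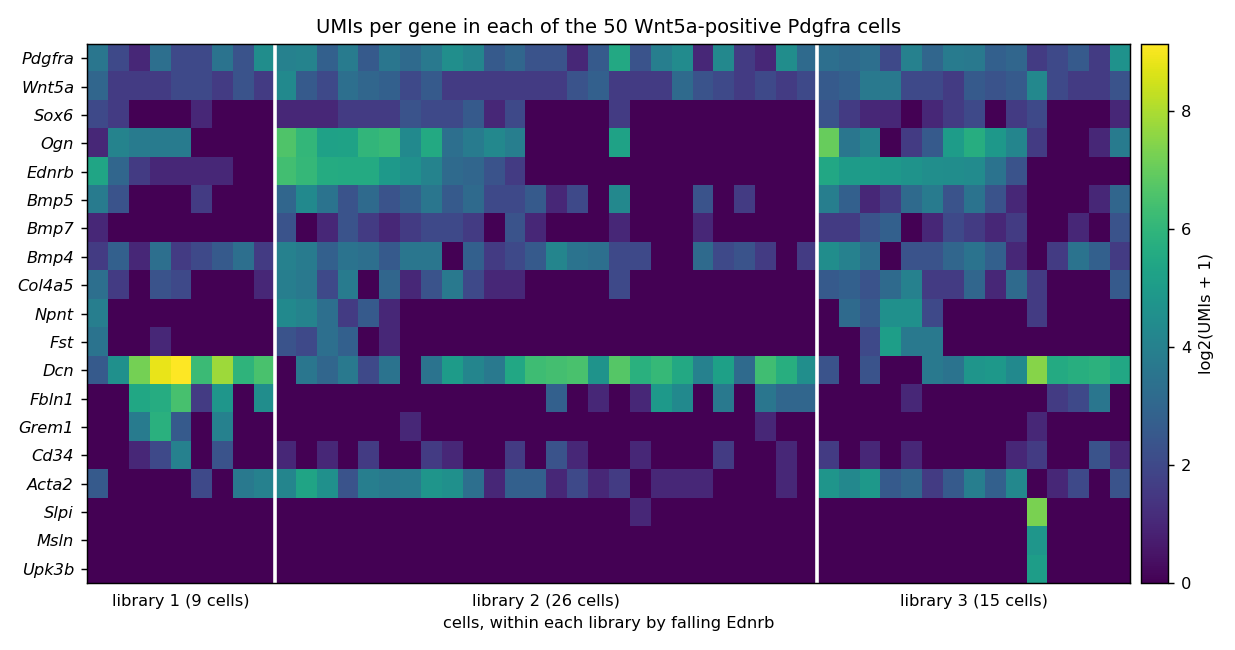
UMIs of 19 genes (rows) in each of the 50 Wnt5a-positive Pdgfra cells (columns), grouped by library and ordered within it by falling Ednrb, on a log2(UMIs + 1) colour scale. In libraries 2 and 3 most cells rich in Ednrb and Ogn hold little Fbln1. In library 1 the cell with most Dcn and Fbln1 also holds Ogn, while another cell rich in both holds none. In library 3, 1 cell carries Slpi, Msln and Upk3b.

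The 50 cells were not uniform, as the plot of UMIs per cell shows. A split by Sox6, a transcription factor gene of telocytes, was chosen after the values were seen and is described with no test. Of the members, 25 had a Sox6 UMI (3, 13 and 9 in libraries 1, 2 and 3) and 24 had none (6, 13 and 5), with the mesothelial-marker cell kept apart. Their depths were close, at medians of 8930 and 9240 UMIs. Sox6 had 1 to 5 UMIs in the 25 cells (median 2), so a cell with none may hold Sox6 that was not captured. For example, 1 cell of library 3 with no Sox6 UMI held 25 Ednrb, 23 Npnt, 12 Fst and 15 Col4a5 UMIs.

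All 25 cells with Sox6 held more genes of the telocyte list, Sox6 itself left out, than of the Pdgfra-low list. Ogn was found in 23 of 25 cells with Sox6 (median 18 UMIs) and in 6 of 24 without (median 0). Ednrb, the endothelin receptor B, was found in 23 of 25 with Sox6 (median 22 UMIs) and 6 of 24 without (median 0). Among BMP ligands, Bmp5 was found in 25 cells with Sox6 and 8 without, Bmp7 in 21 and 4, Bmp2 in 22 and 7, and Bmp3 in 13 and 0. The collagen IV chains Col4a5 and Col4a6 were found in 23 and 15 cells with Sox6, and in 5 and 2 without. Fgf9, a fibroblast growth factor, was seen in 15 cells with Sox6 and 1 without, and Npnt in 11 with and 1 without. Other genes of the telocyte list differed less or went the other way. Foxl1 was found in 10 cells with Sox6 and 6 without, Nrg1 in 11 and 8, and Tnc in 24 and 19. Leaving out library 1, Plpp3 had 471 CPM with Sox6 and 1953 CPM without, and Adamdec1 6320 and 10826 CPM. Nrg1 then had 54.2 CPM with Sox6 and 111 CPM without.

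The cells without Sox6 were mixed, with 10 of 24 holding more genes of the telocyte list, 12 more of the Pdgfra-low list and 2 equal numbers. Dcn (decorin) had a median of 11 UMIs in cells with Sox6 and 56 without. Fbln1 (fibulin 1) was found in 1 of 25 cells with Sox6 and in 18 of 24 without. C3, the central complement component, was found in 0 cells with Sox6 and 6 without. In the same order Cd81 was found in 0 and 11, Rspo3 in 1 and 7, and Ackr4, a scavenging chemokine receptor, in 1 and 8. Grem1 was found in 1 cell with Sox6 and 5 without, and 54 of its 90 UMIs in members came from 1 cell of library 1. Cd34 was found in 10 cells with Sox6 and 11 without. Some other genes of the Pdgfra-low list did not follow either. Leaving out library 1, Ly6a had 547 CPM with Sox6 and 282 CPM without. Dpt was then found in 20 of 22 cells with Sox6 and 16 of 18 without. Bmp4 was found on both sides, in 23 cells with Sox6 and 21 without. So were Cxcl12 (25 with, 21 without), Ptch1 (23 with, 17 without) and Cxcl14 (11 with, 12 without). With library 1 left out, Cxcl14, a gene of the telocyte list, had 130 CPM with Sox6 and 1048 CPM without. Wnt5a itself reached a median of 5 UMIs in cells with Sox6 and 2.5 in cells without.

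**Figure D2:**
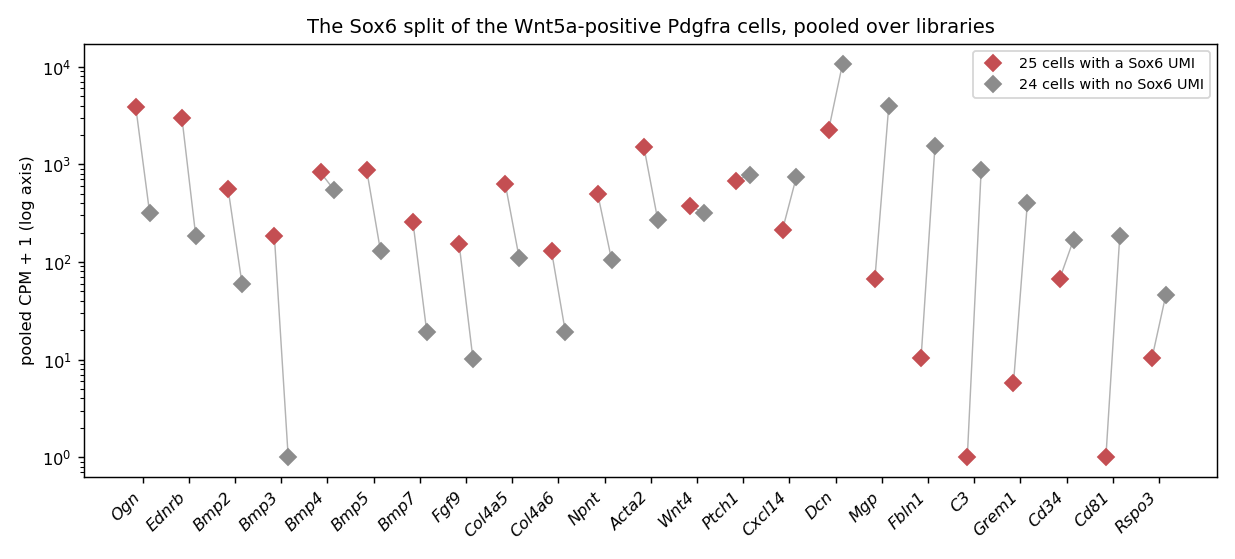
Pooled level of 23 genes (CPM + 1, log axis) in the 25 members with a Sox6 UMI (red) and the 24 without (grey), over all 3 libraries. Ogn, Ednrb, most BMP ligands, Fgf9 and both collagen IV chains lie higher with Sox6, Mgp, Fbln1, C3, Cd81 and Grem1 lie lower, and Bmp4, Wnt4 and Ptch1 lie close together. Most of the C3, Grem1 and Mgp without Sox6 comes from library 1.

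In the levels of the Sox6 split pooled over libraries, Ednrb had 2969 CPM with Sox6 and 182 CPM without, and Mgp (matrix Gla protein) had 66.3 CPM with Sox6 and 3968 CPM without. Bmp4 had 824 CPM with Sox6 and 540.3 CPM without. Library 1 decides several of the levels without Sox6. Without library 1, Mgp had 75.8 CPM in 22 cells with Sox6 and 819 CPM in 18 without, Dcn 2053 CPM with and 5478 CPM without, and Fbln1 0 CPM with and 727 CPM without. C3 then had 0 UMIs with Sox6 and 9 without, where all libraries gave 192 without, and Grem1 had 1 UMI on each side. Ednrb, at 3136 CPM with Sox6 and 229 CPM without, and Ogn, at 4333 CPM with and 203 CPM without, changed less. Library 1 had 3 Sox6 cells among its 9 members, and it also stood apart from libraries 2 and 3 in many of the values below.

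The first comparison set members against Wnt5a-zero Pdgfra cells of the same library, to find which genes go with Wnt5a among cells that share Pdgfra. UMIs were summed per library and tested with edgeR's quasi-likelihood test with the library as a block and Benjamini-Hochberg adjustment over all tested genes. The design asked for at least 10 cells in each sum, so library 1, with 9 members, is outside the test and its values are printed beside it. Of 5908 genes tested, 286 passed an adjusted p of 0.05 (4.84%): 135 were higher in members (2.29%) and 151 lower (2.56%), with a median log2 fold change of -0.01 over all genes. The fit had 1 residual degree of freedom and leans on the spread shared between genes. In library 1 the direction was the same for 90 of the 135 and for 76 of the 151. With library 1 included, 8 genes passed, of which 7 were higher (Fst, Npnt, Col4a5, Rerg, Bpgm, Fry and Tm4sf1) and 1 lower (Fabp4), and 532 had an unadjusted p under 0.05. A single member of library 1 held 10 of its 11 Fst, 14 of its 14 Npnt and 9 of its 19 Col4a5 UMIs. The calls below therefore hold for libraries 2 and 3. Without the cell with mesothelial markers, 257 genes were higher and 278 lower. Pdgfra, Wnt5a, Myh11, Prox1, Ptprc and Epcam chose the cells and are given with no test.

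Among Wnt genes, the ligand Wnt4 rose and Dkk2, Rspo3 and Sfrp1, which modulate Wnt signalling, fell. Of 8 Wnt ligands and secreted modulators tested, 1 rose, 3 fell and 4 missed the threshold, with a median log2 fold change of -1.85 against -0.01 for all genes. List medians below are on the same scale, over the listed genes that passed the filter on low counts (8 of 24 here), and are to be read beside that value. Wnt4, another ligand of gut stroma, had 180.5, 388 and 357 CPM in members of libraries 1, 2 and 3, against 118, 106 and 129.7 CPM in Wnt5a-zero cells (log2 fold change 1.53 ± 0.28 (SE), edgeR adjusted p = 0.00909). The ranges did not overlap. Rspo3, an R-spondin, fell to 53.1, 23.1 and 14.9 CPM in members, against 64.2, 69.3 and 87.0 CPM in Wnt5a-zero cells (log2 fold change -2.07 ± 0.47 (SE), edgeR adjusted p = 0.0276), although its level was far higher in lymphatic cells (299, 304 and 295 CPM). The Wnt antagonists Sfrp1 and Dkk2 fell as well, Sfrp1 to 1157, 582 and 676 CPM in members, against 1929.9, 1530.4 and 1974 CPM in Wnt5a-zero cells (log2 fold change -1.62 ± 0.22 (SE), edgeR adjusted p = 0.00228). Dkk2 had a log2 fold change of -3.07 ± 0.56 (SE) (edgeR adjusted p = 0.00958). Wnt2b had 10.6, 9.24 and 0 CPM in members and 10.7, 26.8 and 31.2 CPM in Wnt5a-zero cells and missed the threshold (edgeR adjusted p = 0.157). Wnt2, Wnt5b, Rspo1 and Rspo2 were too low to test.

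Of 11 tested Wnt receptors and targets, none rose and Fzd1 and Apcdd1 fell, with a list median of -0.30. The receptor Fzd1 had 212, 50.8 and 29.7 CPM in members and 203, 191 and 239.8 CPM in Wnt5a-zero cells (log2 fold change -2.46 ± 0.38 (SE), edgeR adjusted p = 0.00443), and library 1 did not share the difference. Apcdd1, a membrane Wnt inhibitor and target, had 3 UMIs in members of libraries 2 and 3, a ratio of 0.0957 to Wnt5a-zero cells (95% counting interval 0.0195 to 0.285, edgeR adjusted p = 0.00478).

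Bmp2, Bmp3, Bmp5 and Bmp7 rose in libraries 2 and 3, while Bmp4 was not called. Of 14 tested BMP and TGF-beta ligands, 5 rose (Bmp2, Bmp3, Bmp5, Bmp7 and Inhba), Ltbp4 fell and 8 missed the threshold, with a median of 0.04. Bmp5 had 202, 559 and 528 CPM in members, against 175, 114 and 92.0 CPM in Wnt5a-zero cells (log2 fold change 2.25 ± 0.28 (SE), edgeR adjusted p = 0.00114). Bmp3 had 10.6, 115 and 119 CPM in members and 7.13, 13.9 and 13.1 CPM in Wnt5a-zero cells (log2 fold change 2.93 ± 0.36 (SE), edgeR adjusted p = 0.00114). For both genes libraries 2 and 3 stood well apart between the groups, while library 1 differed little.

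Bmp7 had 10.6, 134 and 208 CPM in members and 21.4, 37.9 and 26.3 CPM in Wnt5a-zero cells (log2 fold change 2.15 ± 0.36 (SE), edgeR adjusted p = 0.00598), so that library 1 went the other way. Bmp2 had 159, 346 and 305 CPM in members and 178, 91.5 and 128 CPM in Wnt5a-zero cells (log2 fold change 1.46 ± 0.29 (SE), edgeR adjusted p = 0.0136), again with library 1 the other way. Bmp4 had 414, 725 and 721 CPM in members and 539, 481 and 537 CPM in Wnt5a-zero cells (log2 fold change 0.36 ± 0.24 (SE), edgeR adjusted p = 0.54), and the groups overlapped. Inhba, which encodes an activin subunit, gave a log2 fold change of 2.50 ± 0.47 (SE) (edgeR adjusted p = 0.0108), and the latent TGF-beta binding protein gene Ltbp4 one of -1.18 ± 0.24 (SE) (edgeR adjusted p = 0.0157).

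The BMP antagonists split. Of 6 tested, Fst and Twsg1 rose, Grem1 fell and 3 missed the threshold, with a median of -0.53. Fst (follistatin, which binds activins and some BMPs) had 117, 106 and 453 CPM in members, against 0, 0.924 and 0 CPM in Wnt5a-zero cells, where 1 UMI was seen in all. Over libraries 2 and 3 that is 84 UMIs against 1, which puts the ratio at 405 (95% counting interval 70.7 to 16168) with an edgeR adjusted p of 4.32e-05. The Fst UMIs came from 11 members, and 1 cell held 35.8% of them. In members of library 1, 1 cell held 10 of the 11 Fst UMIs. Twsg1, an extracellular BMP modulator, had 350.4, 614 and 528 CPM in members and 218, 196 and 145 CPM in Wnt5a-zero cells (log2 fold change 1.60 ± 0.27 (SE), edgeR adjusted p = 0.00611). Grem1 fell in libraries 2 and 3, with 924, 9.24 and 7.43 CPM in members and 71.3, 301 and 204 CPM in Wnt5a-zero cells. Members of libraries 2 and 3 held 3 Grem1 UMIs, a ratio of 0.0321 (95% counting interval 0.00660 to 0.0944, edgeR adjusted p = 0.000347). In library 1 Grem1 was higher in members. Of 12 tested BMP and TGF-beta receptors and targets, Id2, a BMP-responsive inhibitor of differentiation, rose (log2 fold change 1.22 ± 0.29 (SE), edgeR adjusted p = 0.036) and none fell, with a median of -0.28. DESeq2 called none of these 12.

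**Figure D3:**
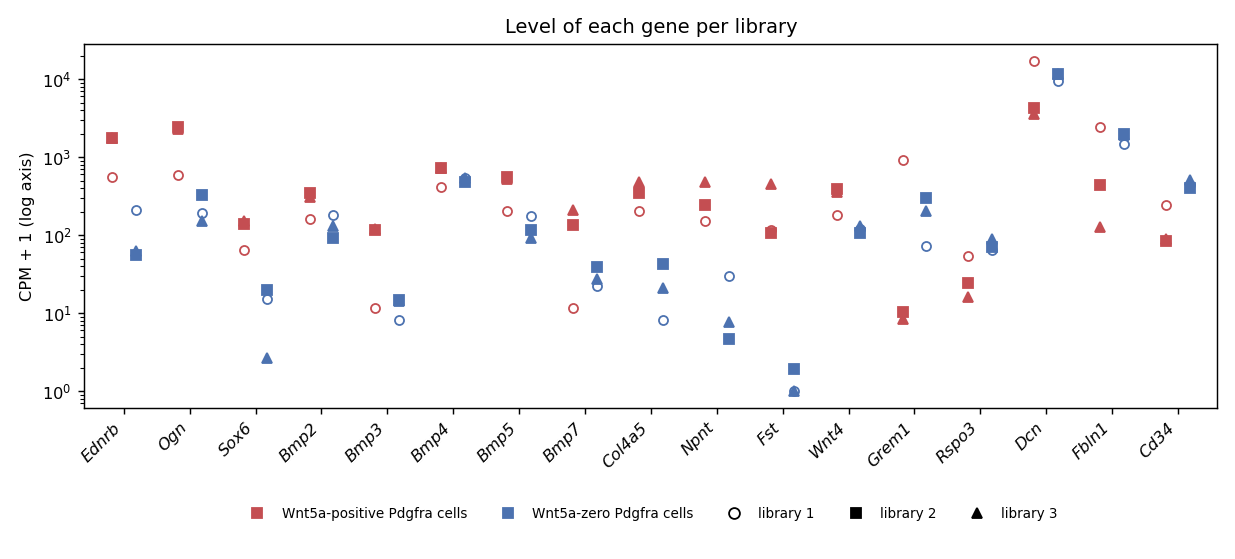
Level (CPM + 1, log axis) of 17 genes in Wnt5a-positive Pdgfra cells (red, left) and Wnt5a-zero Pdgfra cells (blue, right), with 1 symbol per library and library 1 open. In libraries 2 and 3 Ednrb, Ogn, Sox6, Col4a5, Npnt and Fst lie above and Grem1, Dcn, Fbln1 and Cd34 below, while library 1 goes the other way for Grem1, Dcn, Fbln1, Bmp2 and Bmp7.

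Hedgehog response genes were mixed. Of 10 tested genes of the hedgehog pathway and its forkhead factors, Ptch1, Foxf1 and Foxl1 rose and none fell, with a median of 0.45. DESeq2 called 1 of the 10. Ptch1, the receptor and a target of the pathway, had 828, 660.5 and 728 CPM in members, against 346, 262 and 294 CPM in Wnt5a-zero cells (log2 fold change 1.17 ± 0.25 (SE), edgeR adjusted p = 0.0217), and the ranges did not overlap. Gli1, another target, had 42.5, 64.7 and 29.7 CPM in members and 39.2, 53.6 and 37.8 CPM in Wnt5a-zero cells and was not called (log2 fold change -0.06 ± 0.38 (SE), edgeR adjusted p = 0.987). Foxl1, the forkhead factor that defines telocytes, had 21.2, 64.7 and 52.0 CPM in members and 7.13, 8.32 and 3.28 CPM in Wnt5a-zero cells (log2 fold change 3.05 ± 0.56 (SE), edgeR adjusted p = 0.00958). It was found in 16 members, with at most 3 UMIs in a cell. After thinning, 12.2% of members, 3.43% of Wnt5a-zero cells and 0.123% of lymphatic cells had a Foxl1 UMI, against 32.0%, 5.41% and 0.247% unthinned. Foxf1 gave a log2 fold change of 1.11 ± 0.27 (SE) (edgeR adjusted p = 0.0397). Hhip, an inhibitor of the pathway, went the other way in libraries 2 and 3. There it had 1 UMI in members and 45 in Wnt5a-zero cells, a ratio of 0.107 (counting interval 0.00265 to 0.628). That interval covers counting error only and is no test between the groups. In members of library 1 Hhip had 53.1 CPM.

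Of 21 tested transcription factor genes of gut mesenchyme, Foxf1, Foxl1, Sox6, Tbx3 and Tcf4 rose and Klf4 fell, with a median of 0.29. Sox6 had 63.7, 139 and 149 CPM in members, against 14.3, 18.5 and 1.64 CPM in Wnt5a-zero cells (log2 fold change 3.43 ± 0.50 (SE), edgeR adjusted p = 0.00307), and the groups did not overlap. Klf4 had 552, 102 and 74.3 CPM in members and 403, 530.5 and 670.1 CPM in Wnt5a-zero cells (log2 fold change -2.86 ± 0.33 (SE), edgeR adjusted p = 0.000863), with library 1 within the range of the Wnt5a-zero cells.

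Among 12 tested growth factor ligands, Fgf9, Nrg1 and Vegfa rose and none fell, with a median of 0.16. DESeq2 called none of the 12, and 6 had an unadjusted p under 0.05 by edgeR. Fgf9 had 31.9, 87.8 and 89.2 CPM in members and 10.7, 5.54 and 3.28 CPM in Wnt5a-zero cells (log2 fold change 4.03 ± 0.52 (SE), edgeR adjusted p = 0.00141). Nrg1, a ligand of the epithelial ERBB receptors, had 53.1, 69.3 and 89.2 CPM in members and 39.2, 14.8 and 19.7 CPM in Wnt5a-zero cells (log2 fold change 2.04 ± 0.40 (SE), edgeR adjusted p = 0.0126). Vegfa, the endothelial growth factor, had 74.3, 106 and 74.3 CPM in members and 35.7, 28.6 and 34.5 CPM in Wnt5a-zero cells (log2 fold change 1.43 ± 0.36 (SE), edgeR adjusted p = 0.0442). For each of the 3 genes, the sums of members lay above those of Wnt5a-zero cells in every library.

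Receptors and channels of vasoactive and nerve signals rose in part. Of 17 tested, 6 rose (Ednrb, Ednra, Gja1, Gucy1b1, Kcnj8 and Ramp1) and Entpd2 fell, with a median of 0.23. Ednrb had 563, 1750.5 and 1746 CPM in members of libraries 1, 2 and 3, against 207, 54.5 and 60.8 CPM in Wnt5a-zero cells (log2 fold change 4.77 ± 0.28 (SE), edgeR adjusted p = 5.33e-06), and the groups did not overlap. It was carried by 29 of 50 members, with up to 81 UMIs in a cell. In members of library 1, 1 cell held 40 of the 53 Ednrb UMIs. Lymphatic cells also hold Ednrb, at 93.8, 61.3 and 50.8 CPM. Ednra, the endothelin receptor A, had 117, 203 and 253 CPM in members and 96.3, 69.3 and 44.3 CPM in Wnt5a-zero cells (log2 fold change 1.80 ± 0.32 (SE), edgeR adjusted p = 0.00772). Kcnj8, a potassium channel subunit of pericytes, gave a log2 fold change of 1.82 ± 0.40 (SE) (edgeR adjusted p = 0.0243) and was at 0 in members of library 1. Entpd2, an ectonucleotidase, had 74.3, 55.4 and 37.2 CPM in members and 161, 188 and 197 CPM in Wnt5a-zero cells (log2 fold change -2.14 ± 0.36 (SE), edgeR adjusted p = 0.00593).

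Basement membrane genes rose in part. Of 16 tested, Col4a5, Col4a6, Lama5 and Npnt rose and Col15a1 fell, with a median of 0.13. Npnt (nephronectin, an integrin ligand of basement membranes) had 149, 240.2 and 476 CPM in members, against 28.5, 3.70 and 6.57 CPM in Wnt5a-zero cells (log2 fold change 5.88 ± 0.37 (SE), edgeR adjusted p = 9.95e-06). Its UMIs came from 13 members. Col4a5 had 202, 342 and 483 CPM in members and 7.13, 41.6 and 19.7 CPM in Wnt5a-zero cells (log2 fold change 3.49 ± 0.36 (SE), edgeR adjusted p = 0.000542), and Col4a6 had 63.7, 73.9 and 66.9 CPM in members and 14.3, 9.24 and 6.57 CPM in Wnt5a-zero cells (log2 fold change 2.94 ± 0.50 (SE), edgeR adjusted p = 0.00611). For all 3 genes the ranges did not overlap. In members of library 1, however, 1 cell held 14 of 14 Npnt, 9 of 19 Col4a5 and 5 of 6 Col4a6 UMIs. Lama5, a laminin chain, was at 0 in members of library 1 and gave a log2 fold change of 3.78 ± 0.73 (SE) (edgeR adjusted p = 0.0118). Col15a1, a collagen of vessel and muscle basement membranes, had 319, 111 and 96.6 CPM in members and 474, 301 and 442 CPM in Wnt5a-zero cells (log2 fold change -1.92 ± 0.33 (SE), edgeR adjusted p = 0.00625).

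Col4a5 and Col4a6 encode the collagen IV alpha 5 and alpha 6 chains, which assemble into one network, and they lie head to head on the X chromosome. Their promoters are shown because both genes were higher in members. The RefSeq promoter windows on GRCm38.p6 run from 250 bases before to 50 bases after each gene's start. Their start sites are 1343 bases apart. The Col4a6 window is chrX:141474027-141474326 on the minus strand and the Col4a5 window chrX:141475169-141475468 on the plus strand. Capitals mark the core of a GC box, GGGCGG in Col4a5 and its reverse complement CCGCCC in Col4a6, each written 5′ to 3′ along its gene.
Col4a6 promoter: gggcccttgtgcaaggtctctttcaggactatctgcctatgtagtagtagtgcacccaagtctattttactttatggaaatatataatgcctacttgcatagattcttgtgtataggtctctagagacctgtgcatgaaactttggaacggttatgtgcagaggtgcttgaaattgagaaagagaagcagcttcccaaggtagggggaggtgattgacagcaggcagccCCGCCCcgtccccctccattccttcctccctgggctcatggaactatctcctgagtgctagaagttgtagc
Col4a5 promoter: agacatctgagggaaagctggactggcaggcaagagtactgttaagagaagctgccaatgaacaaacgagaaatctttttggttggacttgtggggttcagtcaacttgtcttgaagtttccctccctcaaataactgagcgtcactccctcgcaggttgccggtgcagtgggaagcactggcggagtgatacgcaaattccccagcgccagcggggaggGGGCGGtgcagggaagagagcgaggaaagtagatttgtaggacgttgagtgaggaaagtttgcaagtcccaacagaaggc
Each window held 1 GC box core and no TATAAA on either strand, and 48.3% of the bases of the Col4a6 window and 52.7% of those of the Col4a5 window were G or C. Over 32851 promoter windows of the same length, 35.7% held GGGCGG and 13.6% held TATAAA on either strand. A match of letters is not a binding site.

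More interstitial matrix genes fell than rose. Of 31 tested, 10 fell (Col1a1, Col1a2, Col3a1, Col14a1, Eln, Fbln1, Mfap4, Mfap5, Mgp and Sparc) and 2 rose (Col12a1 and Col6a4), with a median of -0.21. Mgp had 7952, 448 and 327 CPM in members, against 4163, 5194 and 3984 CPM in Wnt5a-zero cells (log2 fold change -3.72 ± 0.21 (SE), edgeR adjusted p = 5.33e-06). Fbln1 had 2421, 434 and 126 CPM in members and 1473, 1997 and 1915 CPM in Wnt5a-zero cells (log2 fold change -3.04 ± 0.35 (SE), edgeR adjusted p = 0.000878). In library 1 both were higher in members. Mfap5, a microfibril protein gene, had 3 UMIs in members of libraries 2 and 3, a ratio of 0.0406 (95% counting interval 0.00833 to 0.120, edgeR adjusted p = 0.000759). The fibril-associated Col12a1 had 329, 882 and 817 CPM in members and 268, 157 and 171 CPM in Wnt5a-zero cells (log2 fold change 2.23 ± 0.26 (SE), edgeR adjusted p = 0.000957). Col6a4 had a log2 fold change of 3.37 ± 0.30 (SE) (edgeR adjusted p = 0.000182) and was lower in members of library 1.

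Of 11 tested proteoglycan genes, Ogn rose and Dcn and Bgn fell, with a median of -0.45. Ogn had 595, 2429 and 2281 CPM in members, against 193, 329.9 and 153 CPM in Wnt5a-zero cells (log2 fold change 3.21 ± 0.29 (SE), edgeR adjusted p = 0.000182), with no overlap. Dcn had 17327, 4217 and 3537 CPM in members and 9528, 11631 and 11688 CPM in Wnt5a-zero cells (log2 fold change -1.74 ± 0.15 (SE), edgeR adjusted p = 0.000152), and members of library 1 had the highest of these levels. A single cell there held 558 of 1632 Dcn UMIs. Bgn (biglycan) gave a log2 fold change of -1.12 ± 0.21 (SE) (edgeR adjusted p = 0.0114). Cd34, a sialomucin of crypt-base and adventitial fibroblasts, had 244, 83.1 and 89.2 CPM in members and 439, 395 and 504 CPM in Wnt5a-zero cells (log2 fold change -2.51 ± 0.32 (SE), edgeR adjusted p = 0.00135), with members lower in every library. Cd81 had 169.9, 111 and 111 CPM in members and 0, 128 and 85.4 CPM in Wnt5a-zero cells and was not called (log2 fold change -0.12 ± 0.31 (SE), edgeR adjusted p = 0.914). Ackr4 had 255, 27.7 and 0 CPM in members and 0, 69.3 and 18.1 CPM in Wnt5a-zero cells and was not called either (log2 fold change -1.70 ± 0.55 (SE), edgeR adjusted p = 0.126).

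Proteases, chemokines and complement genes were lower in members or did not differ past the threshold, apart from F3. Of 21 tested proteases and inhibitors, F3 rose and 8 fell, with a median of -0.82. F3, which encodes tissue factor and is a marker of Pdgfra-high cells, had 106, 217 and 215 CPM in members and 39.2, 47.1 and 29.6 CPM in Wnt5a-zero cells (log2 fold change 2.30 ± 0.31 (SE), edgeR adjusted p = 0.00199). The stromelysin gene Mmp3 had 0 UMIs in members of libraries 2 and 3 and was at least 7.41-fold lower, against a floor of 3 UMIs over the group (edgeR adjusted p = 0.00478). Serpinf1, a serpin gene, had a log2 fold change of -3.09 ± 0.43 (SE) (edgeR adjusted p = 0.00228), and the procollagen protease gene Adamts2 one of -2.29 ± 0.36 (SE) (edgeR adjusted p = 0.00478).

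Of 21 tested chemokine and cytokine genes, none rose and 8 fell (Ccl21a, Cxcl1, Cxcl2, Cxcl9, Cxcl10, Cxcl13, Il6 and Il33), with a median of -1.36. Ccl21a is listed under more than one identifier, its counts are uncertain, and it and Il33 are high in lymphatic cells. The interferon-induced Cxcl9 had 0, 4.62 and 81.7 CPM in members and 335, 358 and 266 CPM in Wnt5a-zero cells (log2 fold change -3.29 ± 0.61 (SE), edgeR adjusted p = 0.00958). The B-cell chemokine Cxcl13 had 106, 32.3 and 22.3 CPM in members and 114, 276 and 78.8 CPM in Wnt5a-zero cells (log2 fold change -2.90 ± 0.43 (SE), edgeR adjusted p = 0.00336). Il6 had 180.5, 23.1 and 0 CPM in members and 60.6, 80.4 and 49.3 CPM in Wnt5a-zero cells (log2 fold change -2.42 ± 0.58 (SE), edgeR adjusted p = 0.0354), with library 1 the other way. Cxcl12, a ligand for lymphocytes and endothelium, had 722, 785 and 825 CPM in members and 1038, 1049 and 931 CPM in Wnt5a-zero cells and was not called (edgeR adjusted p = 0.391). Cxcl14 had 255, 647 and 327 CPM in members and 278, 268 and 271 CPM in Wnt5a-zero cells and was not called (edgeR adjusted p = 0.318).

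Of 10 tested complement and innate defence genes, 6 fell, C1ra, C3, C4b, Cd55 and Serping1 among them, and none rose, with a median of -1.46. The complement regulator gene Cd55 had 95.6, 13.9 and 22.3 CPM in members and 289, 238 and 225 CPM in Wnt5a-zero cells (log2 fold change -3.89 ± 0.44 (SE), edgeR adjusted p = 0.000759), lower in every library. C4b had 786, 120.1 and 52.0 CPM in members and 624, 780.0 and 614 CPM in Wnt5a-zero cells (log2 fold change -3.15 ± 0.33 (SE), edgeR adjusted p = 0.000558). C3 had 1943, 41.6 and 646 CPM in members and 1027, 1742 and 1242 CPM in Wnt5a-zero cells (log2 fold change -2.79 ± 0.71 (SE), edgeR adjusted p = 0.0477). Of its UMIs in members of library 3, all 87 came from the cell with mesothelial markers.

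Several contractile genes rose. Of 15 tested, Acta2, Tagln, Myl9, Mylk and Cald1 rose and none fell, with a median of 0.94. Acta2, the smooth muscle actin of myofibroblasts, had 372, 942 and 1018 CPM in members, against 271, 379 and 271 CPM in Wnt5a-zero cells (log2 fold change 1.45 ± 0.26 (SE), edgeR adjusted p = 0.00847). Tagln had 212, 725 and 1033 CPM in members and 168, 290.2 and 154 CPM in Wnt5a-zero cells (log2 fold change 1.85 ± 0.34 (SE), edgeR adjusted p = 0.00957), and Myl9 gave a log2 fold change of 1.46 ± 0.29 (SE) (edgeR adjusted p = 0.0132). These genes moved with Myh11, a gene of the rule, which had 31.9, 50.8 and 81.7 CPM in members and 14.3, 26.8 and 18.1 CPM in Wnt5a-zero cells, and its part in the result was not tested.

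**Figure D4:**
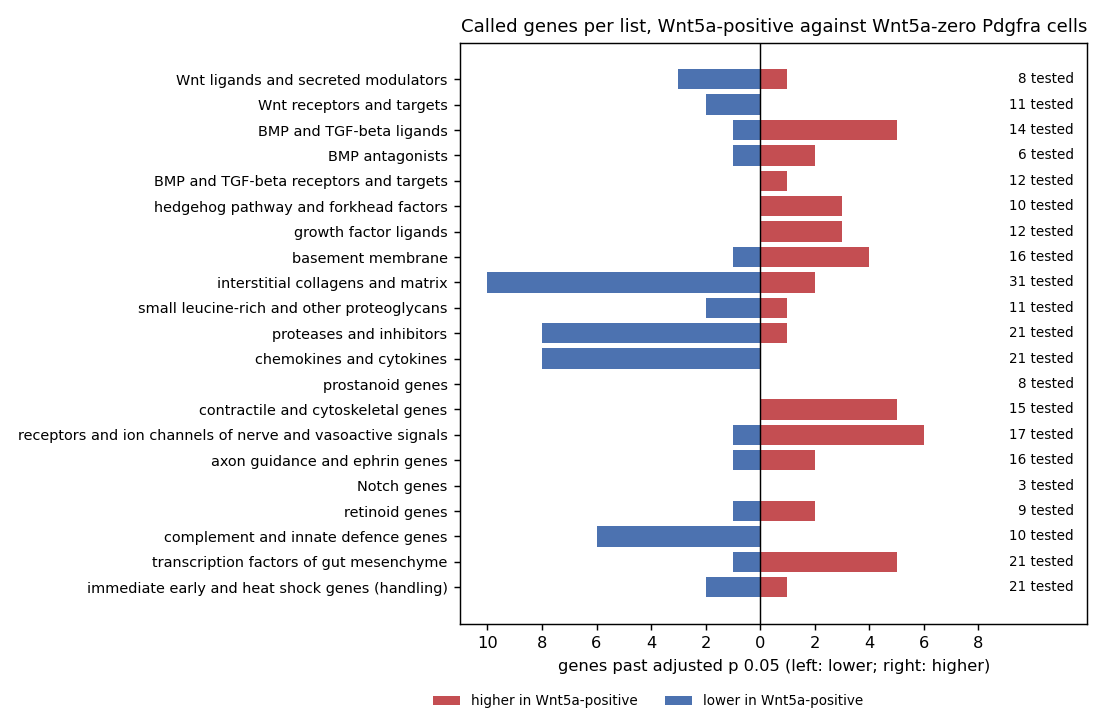
Number of genes per list that passed edgeR's adjusted p of 0.05, higher (right, red) or lower (left, blue) in Wnt5a-positive than in Wnt5a-zero Pdgfra cells, with the number tested. Higher calls are most frequent among receptors (6), BMP ligands, contractile genes and transcription factors (5 each), lower calls among interstitial matrix (10), chemokines and proteases (8 each).

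Outside the lists, the genes with the largest folds were led by Adamts18, a secreted metalloprotease gene. It had 84.9, 83.1 and 126 CPM in members and 7.13, 0 and 0 CPM in Wnt5a-zero cells. Over libraries 2 and 3 it was at least 56.2-fold higher, against 3 UMIs over the Wnt5a-zero group (edgeR adjusted p = 0.000584). Lmo3, a transcriptional cofactor gene, had 42.5, 55.4 and 59.4 CPM in members and 0, 0.924 and 1.64 CPM in Wnt5a-zero cells, a ratio of 48.2 (95% counting interval 11.7 to 425, edgeR adjusted p = 0.00265). Cdh13, an unusual cadherin gene, gave a ratio of 38.5 (95% counting interval 11.7 to 199.9, edgeR adjusted p = 0.00187).

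The other 7 higher genes outside the lists were Ptpre, Col4a4, Fam162b, Rerg, Emid1, Bpgm and Smoc1, with log2 fold changes from 2.91 to 3.66. Rerg had 117, 102 and 163 CPM in members and 17.8, 10.2 and 16.4 CPM in Wnt5a-zero cells (log2 fold change 3.14 ± 0.36 (SE), edgeR adjusted p = 0.000819), and Emid1 had 169.9, 273 and 394 CPM in members and 82.0, 34.2 and 31.2 CPM in Wnt5a-zero cells (log2 fold change 3.13 ± 0.30 (SE), edgeR adjusted p = 0.000338). Both held in every library. Among the lower genes, Shisa3, Pi15, Kdr, Col8a1, Hspb8, Gda, Top2a, Lsamp and Prc1 had 0 UMIs in members of libraries 2 and 3. They were at least 3.74-fold (Prc1) to 10.3-fold (Shisa3) lower, against 3 UMIs over the members. Top2a and Prc1, genes of dividing cells, and Kdr, an endothelial receptor gene, were at 0 in members of library 1 as well. Blood endothelial genes summed to 60.6, 108 and 708 CPM in Wnt5a-zero cells of libraries 1, 2 and 3. Their part in the Kdr difference was not tested. Serpina3n, an acute-phase serpin gene, had 2 UMIs in libraries 2 and 3, a ratio of 0.0191 (95% counting interval 0.00230 to 0.0693, edgeR adjusted p = 0.000347).

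The second comparison set members against 236 Myh11-high cells, which had at least 3 Myh11 UMIs, no Pdgfra and none of the other excluded genes, and so were mostly muscle-type cells by choice. Pdgfra, Wnt5a and Myh11 chose these groups, and the contractile genes that go with Myh11 describe that choice. Smooth muscle genes summed to 21397 to 43341 CPM in them. Of 7003 genes tested in libraries 2 and 3, 925 passed (13.2%): 471 were higher in members (6.73%) and 454 lower (6.48%), with a median of -0.02. With library 1 included, 423 genes were higher and 403 lower, of which 675 were also called without it. It fell to 0 of either kind when library 2 was then left out, where 615 genes had an unadjusted p under 0.05.

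BMP ligand and matrix genes rose in members more often than they fell, and contractile genes fell. Of 14 tested BMP and TGF-beta ligands, 8 rose and none fell (median 1.63), among them Bmp4, which did not differ past the threshold between Pdgfra cells. Bmp4 had 414, 725 and 721 CPM in members and 139.5, 134 and 182 CPM in Myh11-high cells (log2 fold change 2.04 ± 0.40 (SE), edgeR adjusted p = 5.69e-05). Bmp7 had 57 UMIs in members and 1 in Myh11-high cells of libraries 2 and 3, a ratio of 432 (95% counting interval 74.5 to 17372, edgeR adjusted p = 1.89e-16). Wnt4 had 180.5, 388 and 357 CPM in members and 9.97, 9.42 and 16.3 CPM in Myh11-high cells (log2 fold change 4.74 ± 0.47 (SE), edgeR adjusted p = 7.19e-14).

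Fst was not seen in Myh11-high cells of any library and was at least 212-fold higher in members, against 3 UMIs over the Myh11-high cells (edgeR adjusted p = 6.73e-17). Of 31 interstitial matrix genes, 20 rose and 2 fell (median 1.82), and of 16 basement membrane genes 7 rose and Lamb2 fell (median 0.96). Npnt was not called here, with 149, 240.2 and 476 CPM in members and 462, 323 and 481 CPM in Myh11-high cells (log2 fold change -0.39 ± 0.40 (SE), edgeR adjusted p = 0.628). Col4a5 differed in every library, with 202, 342 and 483 CPM in members and 6.65, 6.65 and 9.32 CPM in Myh11-high cells (log2 fold change 5.48 ± 0.49 (SE), edgeR adjusted p = 8.52e-16). Of 10 prostanoid genes 6 rose and Ptger1 fell, and of 11 retinoid genes 6 rose and Cyp26b1 fell (median 1.34).

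Of 19 contractile genes, 13 fell in members and none rose, with a median of -3.35. Acta2 had 372, 942 and 1018 CPM in members and 15835, 16094 and 8619 CPM in Myh11-high cells (log2 fold change -3.77 ± 0.56 (SE), edgeR adjusted p = 9.19e-08). Grem1 was also lower in members of libraries 2 and 3, with 924, 9.24 and 7.43 CPM in members and 336, 557 and 279.7 CPM in Myh11-high cells, a ratio of 0.0183 (95% counting interval 0.00376 to 0.0535, edgeR adjusted p = 1.67e-11). Hhip, a hedgehog-binding inhibitor, had 53.1, 4.62 and 0 CPM in members and 990.1, 544 and 840.2 CPM in Myh11-high cells, a ratio of 0.00446 (95% counting interval 0.000113 to 0.0249, edgeR adjusted p = 4.22e-14). Outside the lists, Adamts18, C7, Hs3st6, Cybrd1 and Pla2g7 gave the largest higher folds and Pcp4, Tinagl1, Flt1, Ckm and Actc1 the largest lower ones. C7, a terminal complement component, was at least 78.4-fold higher in members, and Ckm, the muscle creatine kinase, at least 20.3-fold lower. Pcp4 had 0 UMIs in members of any library and 1143, 1263 and 195 CPM in Myh11-high cells. Flt1, an endothelial gene, is among those lower genes, and blood endothelial genes summed to 296 to 2482 CPM in Myh11-high cells.

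The limit on Myh11 removed 42 further cells that met every other part of the rule (5, 28 and 9 in libraries 1, 2 and 3). They are set beside the members as a description, since the limit chose them. Ogn was found in 30 of 50 members (median 7 UMIs) and 39 of the 42 (median 31). Ednrb was found in 29 of 50 members (median 1.5) and 41 of 42 (median 13.5), Bmp5 in 33 of 50 and 42 of 42, and Sox6 in 26 of 50 and 33 of 42. These counts are not adjusted for depth, and the summed levels did not follow them in every library. Ednrb had 563, 1750.5 and 1746 CPM in members of libraries 1, 2 and 3, against 3218, 1800 and 1024 CPM in the 42. Ogn had 595, 2429 and 2281 CPM in members and 4134, 3183 and 2270 CPM in the 42. Pdgfra had a median of 7.5 UMIs in members and 15 in these cells. Acta2 had a median of 3.5 UMIs in members and 19.5 in these cells, whose Myh11 had a median of 5 and reached 76. Npnt was found in 13 of 50 members and 9 of 42.

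**Figure D5:**
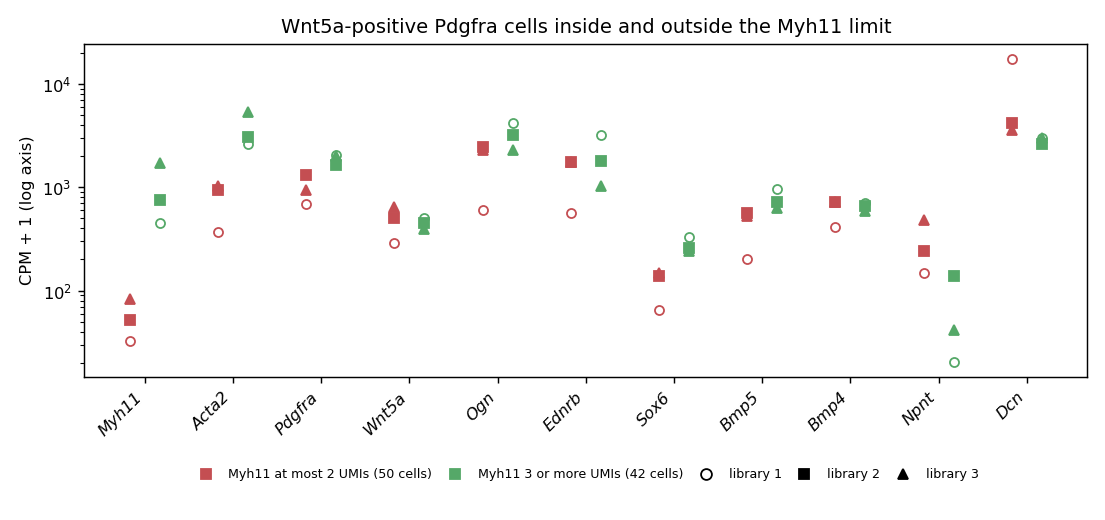
Level (CPM + 1, log axis) per library of 11 genes in the 50 Wnt5a-positive Pdgfra cells with at most 2 Myh11 UMIs (red, left) and the 42 with 3 or more (green, right). Sox6 and Pdgfra lie higher outside the limit in every library, Bmp4 overlaps, and Npnt lies higher inside the limit.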

How the data were processed

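Each library was deposited as a whole-number count matrix of UMIs per gene and cell barcode, with barcodes already called as cells. Chromium 3′ v3 libraries were used per the labels' protocols, and bcl2fastq 2.2, Cell Ranger 6.1.2 and mm10 are named in the submitters' processing notes. No normalization had been applied to the deposited counts, and no annotation of cell types was used here.

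Cells with at least 500 genes and at most 15% mitochondrial UMIs were analysed, which removed 572, 971 and 464 of 6931, 7678 and 9932 barcodes. Levels are CPM of the cells summed per library. Sums with at least 10 cells were tested in edgeR 4.0.16 (R 4.3.3) with filterByExpr, TMM scaling, quasi-likelihood fits and the library as a block, since both cell groups of a pair come from the same library. Library 1, with 9 members, fell below that number. The SE of a log2 fold change was worked back from the test, as its size over the square root of the quasi-likelihood F statistic. It is not a separate estimate of the spread between libraries. DESeq2 1.42.0 was an alternative. Fits were also run on counts simulated from the fitted spread, which cannot show how the calls hold under the real spread between libraries. The 3 libraries differed by far more than sampling noise and none was a copy of another. Library depth was 58857545, 69231794 and 74571090 UMIs. Intervals are exact binomial or conditional 95% intervals and cover counting error only.

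The members, the gene lists and the markers were chosen with earlier results of these data known. Genes given with values are up to 3 called genes a list and direction by size of change, a fixed set of stromal genes and the 10 outside the lists in each direction (5 against Myh11-high cells), with the same sign in the tested libraries and at least 20 CPM in the higher group. Other called genes are named by list, and some are not reported here. The split by Sox6, the cells beyond the Myh11 limit and the cell with mesothelial markers were singled out after values were seen.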

Additional observations from a re-analysis of the deposited data

How the results depend on the processing

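Relative to 135 higher and 151 lower genes against Wnt5a-zero cells, the counts were 43 and 71 with DESeq2, 210 and 249 with at least 1000 genes and at most 10% mitochondrial UMIs, 221 and 258 without cells holding Pecam1 or Lyve1, 247 and 288 with at least 2 Pdgfra UMIs, and 257 and 278 without the cell with mesothelial markers, a choice made after seeing the data. With no filter on low counts 281 genes were lower. Leaving out the 5% of cells with most UMIs, the alternative that bears on doublets, gave 112 and 111. With library 1 included, also chosen after seeing the data, 7 were higher and 1 lower, and leaving out replicate 2 or 3 in turn then gave a range of 0 to 0 in either direction (182 and 244 genes with unadjusted p under 0.05 by edgeR). With no replicate block, so that the pairing by library is dropped, the counts were 169 and 193. Relative to 471 higher and 454 lower genes against Myh11-high cells, the counts were 146 and 131 with DESeq2, 291 and 247 with no replicate block, 183 and 128 with cells thinned to 3000 UMIs, 185 and 176 with at least 3 Wnt5a UMIs, and 0 and 0 with library 1 included and library 2 left out, against 465 and 531 with library 3 left out. The cause was not tested. Leaving out library 1 is the main test, and leaving out library 2 or 3 from the main test gives no value, since 1 pair has no residual degree of freedom.

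The mean share of members was 0.533% with at least 1 Wnt5a UMI and ranged from 0.150% to 0.273% with each library left out in turn. Against Wnt5a-zero cells, 39 named genes no longer passed with DESeq2, while 55 stayed as they were, called or not. With at least 3 Wnt5a UMIs, 18 no longer passed and 69 stayed as they were. Among named genes, Cd81 against Wnt5a-zero cells changed sign to 0.15 with thinning, 0.25 with at least 3 Wnt5a UMIs, 0.13 without Pecam1 or Lyve1 and 0.73 with library 1 included. With at least 3 Wnt5a UMIs, C7 changed sign to -0.65, Gli1 to 0.25 and, against Myh11-high cells, Npnt to 0.20. Ackr4 changed sign to 0.75 with library 1 included and, against Myh11-high cells, to -0.38 with DESeq2 and -0.11 with no filter. With library 1 included and library 2 left out the values were 1.76 for Cd81, 0.25 for Atf3, 0.64 for Grem1, 0.24 for Ier2 and 0.16 for Il6. With library 1 included and library 3 left out they were 1.21 for Cd81, 1.31 for Ackr4, 0.53 for Atf3, 0.48 for Col8a1, 0.16 for Gli1 and 0.15 for Grem1. None of these values passed the threshold by edgeR, and DESeq2 gave no adjusted p for Ackr4. With 50 cells and 445278 UMIs in all, a gene at 0 UMIs in members may still be present at up to 6.74 CPM.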

Other observations

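Single genes of some smaller lists were also called between members and Wnt5a-zero Pdgfra cells in libraries 2 and 3. Of 9 tested retinoid genes, Rbp4 and Aldh1a2 rose and 1 fell, with a median log2 fold change of 0.33. Rbp4, a retinol carrier, had 53.1, 162 and 795 CPM in members of libraries 1, 2 and 3, against at most 42.7 CPM in Wnt5a-zero cells (log2 fold change 2.95 ± 0.46 (SE), edgeR adjusted p = 0.00444). Aldh1a2, which makes retinoic acid, had 234, 425 and 617 CPM in members and 175, 121 and 171 CPM in Wnt5a-zero cells (log2 fold change 1.68 ± 0.27 (SE), edgeR adjusted p = 0.00505). Of 16 tested guidance and ephrin genes, Sema6a and Efnb2 rose and Slit3 fell, with a median of 0.06. Sema6a, a transmembrane semaphorin, gave a log2 fold change of 1.99 ± 0.34 (SE) (edgeR adjusted p = 0.00664), and Slit3, a secreted guidance ligand, one of -1.78 ± 0.36 (SE) (edgeR adjusted p = 0.0148). DESeq2 called none of the 16.

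None of 8 tested prostanoid genes and none of 3 tested Notch genes passed the threshold by edgeR or by DESeq2, with medians of 0.03 and -0.34. By edgeR 2 of the prostanoid genes and 0 of the Notch genes had an unadjusted p under 0.05. Of 21 immediate early and heat shock genes, which also respond to digestion, Hspb1 rose and Atf3 and Ier2 fell, with a median of -0.41. Hspb1, a small heat shock protein gene, had 244, 393 and 579.6 CPM in members and 85.6, 86.9 and 78.8 CPM in Wnt5a-zero cells (log2 fold change 2.35 ± 0.30 (SE), edgeR adjusted p = 0.00121), and 1528, 1291 and 1034 CPM in Myh11-high cells. Atf3 had 1719.9, 485 and 461 CPM in members and 446, 850.2 and 1217 CPM in Wnt5a-zero cells (log2 fold change -1.24 ± 0.26 (SE), edgeR adjusted p = 0.0167), with library 1 the other way.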
